A study of Mus musculus with 2 samples.

Results

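The genes described here are Adh1, Adh5, Aldh1a1, Rbp2 and Dhrs3, which encode alcohol and aldehyde dehydrogenases and proteins that bind or reduce retinoids. They were taken by symbol from a table of 17134 genes, and all 5 were found in it. The table comes from RNA sequencing of tuft cells, the rare chemosensory cells of the gut epithelium, which were isolated from small intestine of untreated mice by the surface proteins EpCAM and Siglec-F. One library, called Spib_KO, came from mice labelled Spibfl/flVillin-cre, and 1 library, called WT, from mice labelled Spib+Villin-cre. Both genotypes carry Villin-cre, which drives Cre recombinase throughout the intestinal epithelium and not in tuft cells alone. The label of the WT library does not say whether both Spib alleles are intact, and the deleted part of Spib is not stated. The labels give no age, sex or strain and no number of animals behind either library. The comparison asks how transcripts of sorted tuft cells differ when the ETS family transcription factor gene Spib is deleted in the epithelium.

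Vitamin A is absorbed in the small intestine as retinol. Cellular retinol-binding proteins carry it to the enzyme that esterifies it for storage and export, while alcohol dehydrogenases and retinol dehydrogenases oxidise it to retinal. Retinal is reduced back to retinol or oxidised by aldehyde dehydrogenases to retinoic acid, the ligand of nuclear receptors that shape the intestinal epithelium and its immune cells. Enterocytes are the best known site of these steps in the gut.

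Reads counted in genes totalled 17228684 in Spib_KO and 17925448 in WT. Spib had 48 reads in Spib_KO, against 6266 in WT, and its log2 ratio was -6.95 (95% interval -7.40 to -6.55). All 16 tuft cell markers examined were measured and none was called different, with a median log2 ratio of 0.09. Normalised read counts are given as CPM, reads scaled to a common library size. A log2 ratio is Spib_KO over WT, and its 95% interval covers counting error only. A gene counted as measured if it reached 5 CPM and 30 reads in at least 1 library. A gene whose whole interval lay at or beyond a 2-fold difference, 1 in log2 units, is called higher or lower here. There was 1 library per genotype, so the genotypes could not be tested against each other and no difference below has a replicate check. Of 10707 measured genes, 2.33% were called higher and 2.18% lower, and the median log2 ratio was 0.01.

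Of the 5 genes, Adh1 was called lower in Spib_KO and the other 4 were not called, where 2.18% of all measured genes were lower. All 5 passed the filter on low counts. Adh1 and Rbp2 were abundant transcripts in both libraries, and Adh5, Dhrs3 and Aldh1a1 were at much lower levels. Reads from a sorted population do not separate fewer cells of a type from less RNA per cell, and this holds for each result below.

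Adh1 encodes the class I alcohol dehydrogenase, which oxidises ethanol and is known in mice for clearing excess retinol. The gene (identifier 11522) lies on chromosome 3, 138277585 to 138290698 (GRCm38.p6). It had 25017 reads in Spib_KO and 79699 in WT. As normalised read counts these were 1458 CPM in Spib_KO (95% Poisson interval 1440 to 1476) and 4429 CPM in WT (4398 to 4459). The level in Spib_KO was 32.9% of that in WT, a 3.04-fold lower value, and the log2 ratio was -1.60 (-1.62 to -1.58). Of the measured genes, 161 had a lower log2 ratio than Adh1.

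Adh1 was the most abundant in WT of the 233 genes called lower, by CPM. Among the 95 measured genes with a mean of 1000 CPM or more, a limit chosen after the values were seen, 4 were lower and 0 higher. The other lower genes of that class were Reg3b and Reg3g, which encode secreted antibacterial lectins, and Ptpn6, which encodes a tyrosine phosphatase. Reg3b and Reg3g were 20.8-fold and 9.16-fold lower in Spib_KO, and Ptpn6 was 2.29-fold lower. A search for genes most like Adh1 compared log2 ratios among the 49 measured genes whose mean CPM was within 2-fold of it. The nearest were Trpm5 at -0.56, Lypd8 at -0.51 and Dmbt1 at -0.45, and none of the 49 was called lower. These ratios were 1.05 to 1.15 log2 units above that of Adh1, so none was close to it. Ptpn6 lay outside this window, and genes at lower levels were not compared. With 2 libraries this measure of likeness rests on a single ratio per gene.

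**Figure D1:**
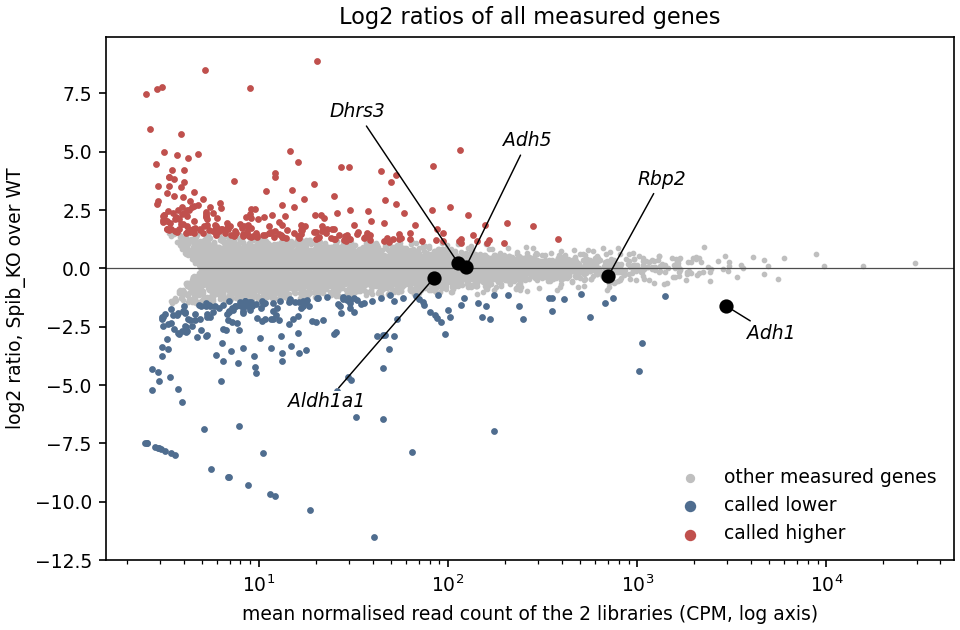
Log2 ratio of Spib_KO over WT against the mean normalised read count of both libraries (CPM, log axis) for 10707 measured genes, with genes called higher in red, genes called lower in blue and the 5 described genes in black. Adh1 lies at -1.60 at the abundant end, apart from Aldh1a1 (-0.41), Rbp2 (-0.34), Adh5 (0.06) and Dhrs3 (0.22). The ratio of a gene with no reads in a library depends on the prior count.

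Rbp2 encodes the retinol-binding protein of enterocytes, which hands retinol to the esterifying enzyme Lrat. The gene (identifier 19660) lies on chromosome 9, 98490537 to 98509771. It had 10609 reads in Spib_KO and 14117 in WT, or 618 CPM in Spib_KO (607 to 630.1) and 784 CPM in WT (772 to 797). The log2 ratio was -0.34 (-0.38 to -0.31), so the Spib_KO value was 78.8% of the WT value. The interval excluded 0 and lay below the lower quartile of all measured genes, -0.26, but the gene was not called.

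Aldh1a1 encodes a retinal dehydrogenase, which makes retinoic acid. The gene (identifier 11668) lies on chromosome 19, 20492583 to 20643463. It had 1245 reads in Spib_KO and 1730 in WT, or 72.6 CPM in Spib_KO (68.6 to 76.7) and 96.1 CPM in WT (91.7 to 101). The log2 ratio was -0.41 (-0.51 to -0.30), with the Spib_KO value at 75.5% of the WT value. This interval too excluded 0 and lay below the lower quartile of -0.26, but the gene was not called. Aldh1a7, its close relative, had 194 reads in Spib_KO and 213 in WT, a log2 ratio of -0.07. The pair shared 151 of the 2309 words of 50 bases in the longest coding transcript of Aldh1a1, which is 6.54%, so a part of their reads could come from either gene.

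Dhrs3 encodes a reductase that turns retinal back into retinol and is known as a gene induced by retinoic acid. The gene (identifier 20148) lies on chromosome 4, 144892534 to 144928209. It had 2093 reads in Spib_KO and 1883 in WT, or 122 CPM in Spib_KO (117 to 127) and 105 CPM in WT (99.96 to 109). The log2 ratio was 0.22 (0.13 to 0.31). The interval excluded 0, but the gene was not called.

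Adh5 encodes the glutathione-dependent formaldehyde dehydrogenase, which also reduces S-nitrosoglutathione and is found in most tissues. The gene (identifier 11532) lies on chromosome 3, 138437200 to 138455499. It had 2173 reads in Spib_KO and 2190 in WT, or 127 CPM in Spib_KO (121 to 132) and 122 CPM in WT (117 to 127). The log2 ratio of 0.06 had an interval that included 0 (-0.03 to 0.14), and it took the other sign, -0.03, when libraries were scaled on tuft markers. A difference in Adh5 was not detectable at this depth.

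Levels between genes were compared in the deposited TPM values, which are per transcript length. In Spib_KO the order was Rbp2 at 1651 TPM, Adh1 at 1526 TPM, Adh5 at 113 TPM, Dhrs3 at 77.2 TPM and Aldh1a1 at 49.3 TPM. In WT the order was Adh1 at 4734 TPM, Rbp2 at 2192 TPM, Adh5 at 111 TPM, Dhrs3 at 67.5 TPM and Aldh1a1 at 66.4 TPM. Adh1 and Rbp2 thus changed places, with an Adh1 level 0.92 times that of Rbp2 in Spib_KO and 2.16 times in WT. Adh1 was the 92nd most abundant gene by TPM in Spib_KO and the 15th in WT, while Rbp2 was the 83rd in Spib_KO and the 54th in WT. Dhrs3 and Aldh1a1 were indistinguishable by counting error in WT, with intervals of 64.5 to 70.6 TPM and 63.3 to 69.6 TPM. In Spib_KO their intervals did not overlap, at 74.0 to 80.6 TPM for Dhrs3 and 46.6 to 52.1 TPM for Aldh1a1.

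**Figure D2:**
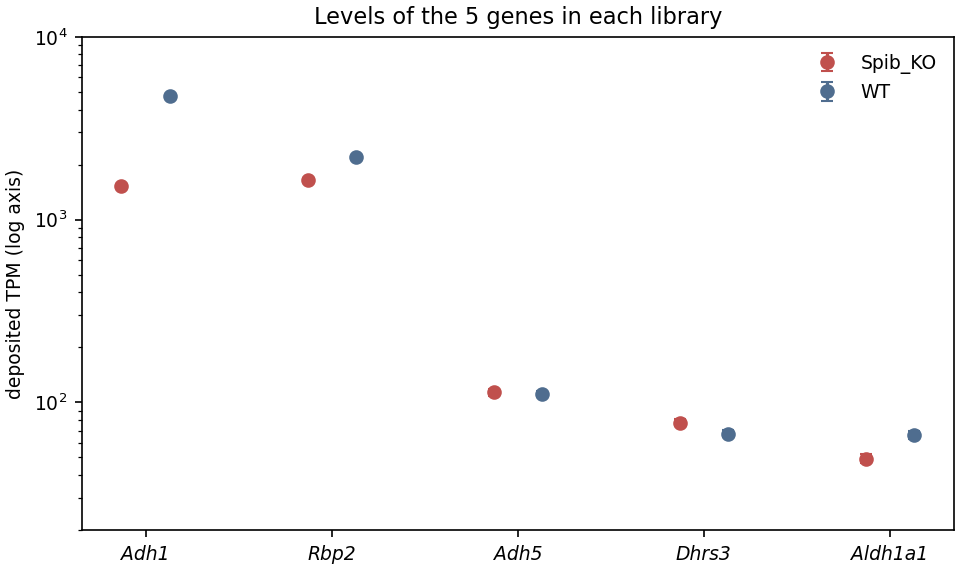
Deposited TPM (log axis) of the 5 genes in the Spib_KO library (red, left of each pair) and the WT library (blue, right), with bars for the 95% Poisson counting interval, mostly smaller than the points. Adh1 has the widest gap, 1526 TPM in Spib_KO and 4734 TPM in WT, and Adh5 the narrowest, 113 TPM in Spib_KO and 111 TPM in WT.

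Per-length values gave the same picture as read counts. On the log2(TPM + 1) scale the difference was -1.63 for Adh1, -0.42 for Aldh1a1, -0.41 for Rbp2, 0.19 for Dhrs3 and 0.03 for Adh5. The transcript length implied by the FPKM values was 1199 bases in Spib_KO and 1181 in WT for Adh1, a log2 difference of 0.02. The estimated read count of each of the 5 genes was a whole number in both libraries. None of the 50-base words of Adh5, Rbp2 or Dhrs3 occurred in another gene's transcript. Of the words of Adh1, 3.26% did, in the pseudogene Adh6-ps1 and in Gm16559. Gm16559 is an antisense transcript, not analysed here, whose exons share 136 of the 2233 exon bases of Adh1, and the library method does not keep strand.

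Adh1 and Adh5 belong to a run of alcohol dehydrogenase genes on chromosome 3, described here because the genes lie side by side and are related in sequence. From the low to the high coordinate, the genes with a row in the table are Adh7, Adh1, Adh6a, Adh4 and Adh5, between 138198064 and 138455499. Adh7, which encodes the class IV enzyme of the upper digestive tract, an efficient retinol dehydrogenase, was called lower as well. It had 21 reads in Spib_KO and 125 in WT, a log2 ratio of -2.48 (-3.25 to -1.83). Its level was 1.22 CPM in Spib_KO and 6.95 CPM in WT. Adh7 thus passed the limit of 5 CPM only through WT, the library where it was higher. Exons of 0610031O16Rik, on the other strand and not analysed here, share 108 of the 3787 exon bases of Adh7. Adh6a had 9744 reads in Spib_KO and 9990 in WT, a log2 ratio of 0.03 (-0.01 to 0.07). Adh4, another retinol-oxidising member, had 542 reads in Spib_KO and 572 in WT, a log2 ratio of -0.01 (-0.18 to 0.16). Adh7 and Adh1, the neighbours at one end, were called lower, and Adh6a, Adh4 and Adh5 were not called. Since Adh7 was measured only through its higher library, this order is a description and not evidence of a pattern by position. The call of Adh7 was lost with a CPM minimum of 20 and with deposited TPM or FPKM, where its level was under the minimum, and its log2(TPM + 1) difference was -1.65.

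The summed level of the cluster was 2294 TPM in Spib_KO and 5504 TPM in WT. Adh1 made up 66.5% of it in Spib_KO and 86.0% in WT. Adh6a made up 27.3% in Spib_KO and 11.4% in WT, although its own TPM was 626 in Spib_KO and 625 in WT.

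**Figure D3:**
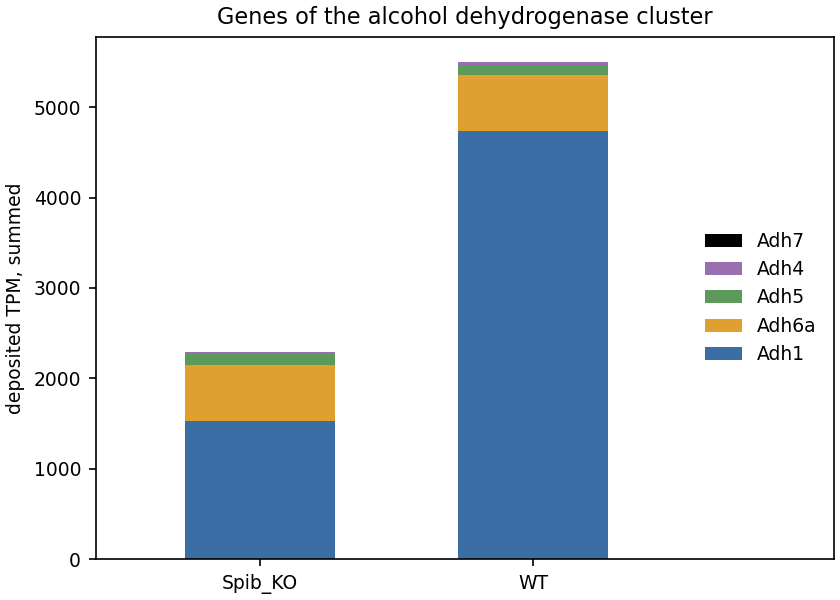
Deposited TPM of the 5 alcohol dehydrogenase genes of the chromosome 3 cluster, stacked, in the Spib_KO library (left) and the WT library (right). The Adh1 segment is 1526 TPM in Spib_KO and 4734 TPM in WT, while the Adh6a segment is 626 TPM in Spib_KO and 625 TPM in WT.

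Adh1 and Adh7 were called lower, with Adh7 measured only through WT, and Adh6a and Rbp2 were not called. The sequences before the start sites of these 3 genes of the cluster and of Rbp2 are printed here. Each is the 250 bases before the RefSeq start (GRCm38.p6, plus strand), at chr3:138277335-138277584 for Adh1, chr3:138217523-138217772 for Adh7, chr3:138313036-138313285 for Adh6a and chr9:98490287-98490536 for Rbp2. The window of Adh7 lies before a start within the RefSeq span of the gene, which begins at 138198064, and the other windows end at the beginning of their gene's span. All 5 described genes matched the promoter table. Capitals mark GGAA or its reverse complement, the core bound by ETS factors.
Adh1: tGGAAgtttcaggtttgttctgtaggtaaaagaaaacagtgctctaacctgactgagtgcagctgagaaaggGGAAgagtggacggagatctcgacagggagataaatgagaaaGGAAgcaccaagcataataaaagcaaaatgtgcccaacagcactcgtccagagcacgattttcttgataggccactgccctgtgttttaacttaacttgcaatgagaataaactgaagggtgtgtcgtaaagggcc
Adh7: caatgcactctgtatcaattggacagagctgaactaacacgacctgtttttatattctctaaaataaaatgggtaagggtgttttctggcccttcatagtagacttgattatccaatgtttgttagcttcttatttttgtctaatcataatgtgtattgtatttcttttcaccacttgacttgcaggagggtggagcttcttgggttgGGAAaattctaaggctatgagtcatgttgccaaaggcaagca
Adh6a: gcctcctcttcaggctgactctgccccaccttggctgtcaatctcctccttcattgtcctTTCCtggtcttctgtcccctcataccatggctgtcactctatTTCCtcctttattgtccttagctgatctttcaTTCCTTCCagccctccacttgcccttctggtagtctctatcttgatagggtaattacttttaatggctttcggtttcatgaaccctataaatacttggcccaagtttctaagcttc
Rbp2: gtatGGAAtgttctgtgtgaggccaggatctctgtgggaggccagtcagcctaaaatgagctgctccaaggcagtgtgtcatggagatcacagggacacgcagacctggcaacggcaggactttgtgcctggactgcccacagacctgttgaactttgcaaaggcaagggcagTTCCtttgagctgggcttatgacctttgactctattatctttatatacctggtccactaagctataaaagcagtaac

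The core GGAA occurred 3 times before Adh1, 1 time before Adh7, 4 times before Adh6a and 2 times before Rbp2. It is common, with a match on either strand in 93.4% of 32851 upstream windows of that length in the table and a median of 3 matches. The longer GAGGAA, which includes that core and is typical of the sites of Spi-B and its relative PU.1, had no match before Adh1, Adh7 or Rbp2. It had 1 match before Adh6a, against 23.3% of all promoters with one. GAGGAAGT had no match in the windows of the 4 genes, against 2.44% of all promoters. The nuclear receptor half-site AGGTCA had 1 match before Rbp2 and none before Adh1, Adh7 or Adh6a, against 14.02% of all promoters. No window of these genes held direct repeats of exact AGGTCA spaced by 5 or by 2 bases, which are among the arrangements that retinoic acid receptors bind. Each was found in 0.0091% of promoters. Other spacings and inexact half-sites were not searched. TATAAA, counted on either strand like the other motifs, was found before Adh7, Adh6a and Rbp2 and not before Adh1, against 12.4% of all promoters. Before Adh7 the match was the reverse complement TTTATA only, so it does not run in the direction of the gene.

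The wider retinoid pathway was described from 56 genes in 6 lists by role, of which 49 were in the table and 31 were measured. Of these 31, Adh1 and Adh7 were lower, Rdh12 was higher and 28 were not called, with a median log2 ratio of -0.07. Over all measured genes the shares were 2.33% higher and 2.18% lower.

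Of 9 measured genes of uptake and storage, none was called, 7 had a ratio below 0 and the median was -0.34. Bco2, which cleaves carotenoids, had 35.4 CPM in Spib_KO and 65.6 CPM in WT, a log2 ratio of -0.89. Exons of Gm47077, on the other strand and not analysed here, share 161 of the 2118 exon bases of Bco2. Stra6l, which encodes a receptor for the retinol carrier of blood, had 140 CPM in Spib_KO and 182 CPM in WT, a ratio of -0.38. Lrat, the enzyme that esterifies retinol, had 13.1 CPM in Spib_KO and 16.4 CPM in WT, a ratio of -0.33. Dgat1, an acyltransferase gene whose product can also esterify retinol, had 210 CPM in Spib_KO and 187 CPM in WT, a ratio of 0.17. Rbp7, another cellular retinol-binding protein gene, had 46.9 CPM in Spib_KO and 35.7 CPM in WT, a ratio of 0.39. The ratio of Rbp2 was thus at the median of its list.

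Of 15 measured genes that interconvert retinol and retinal, 2 were lower (Adh1 and Adh7), 1 was higher (Rdh12) and the median was 0.01. Rdh12, which encodes a retinol dehydrogenase best known from photoreceptors, had 102 reads in Spib_KO and 20 in WT, a log2 ratio of 2.39 (1.72 to 3.19). Its level was 5.94 CPM in Spib_KO and 1.11 CPM in WT, so it was measured only through Spib_KO, its higher library. Dhrs4 at 148 CPM in Spib_KO and 155 CPM in WT had a ratio of -0.06. Rdh7 at 83.3 CPM in Spib_KO and 86.8 CPM in WT also had a ratio of -0.06. Rdh13 and Rdh11 had ratios of 0.18 and 0.26. Rdh10, which makes retinal during development, had 10.4 CPM in Spib_KO and 16.4 CPM in WT, a ratio of -0.65. Rdh14 had 45.3 CPM in Spib_KO and 29.3 CPM in WT, a ratio of 0.63.

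Among genes that make retinoic acid, Aldh1a1 and Aldh1a7 were measured and neither was called. None of the Cyp26 genes, whose enzymes break retinoic acid down, was measured. The receptor genes Rara, Rxra and Rxrb had 21.9, 17.9 and 22.9 CPM in Spib_KO and 24.2, 21.4 and 23.0 CPM in WT, with log2 ratios of -0.15, -0.25 and -0.01. Of 5 measured genes known as targets of retinoic acid none was called, and the median was -0.07. They were Dhrs3, Isx, Tgm2, Nrip1 and Lrat, of which Isx encodes an intestinal homeobox repressor of carotenoid uptake. Isx had 114 CPM in Spib_KO and 120 CPM in WT, a ratio of -0.07. Nrip1, a corepressor gene, had 71.8 CPM in Spib_KO and 44.5 CPM in WT, a ratio of 0.69 (0.56 to 0.82). Per length the gap was smaller, with 5.13 TPM in Spib_KO and 4.61 TPM in WT, a log2(TPM + 1) difference of 0.13. The transcript length implied by its FPKM values was 17570 bases in Spib_KO and 12161 in WT.

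**Figure D4:**
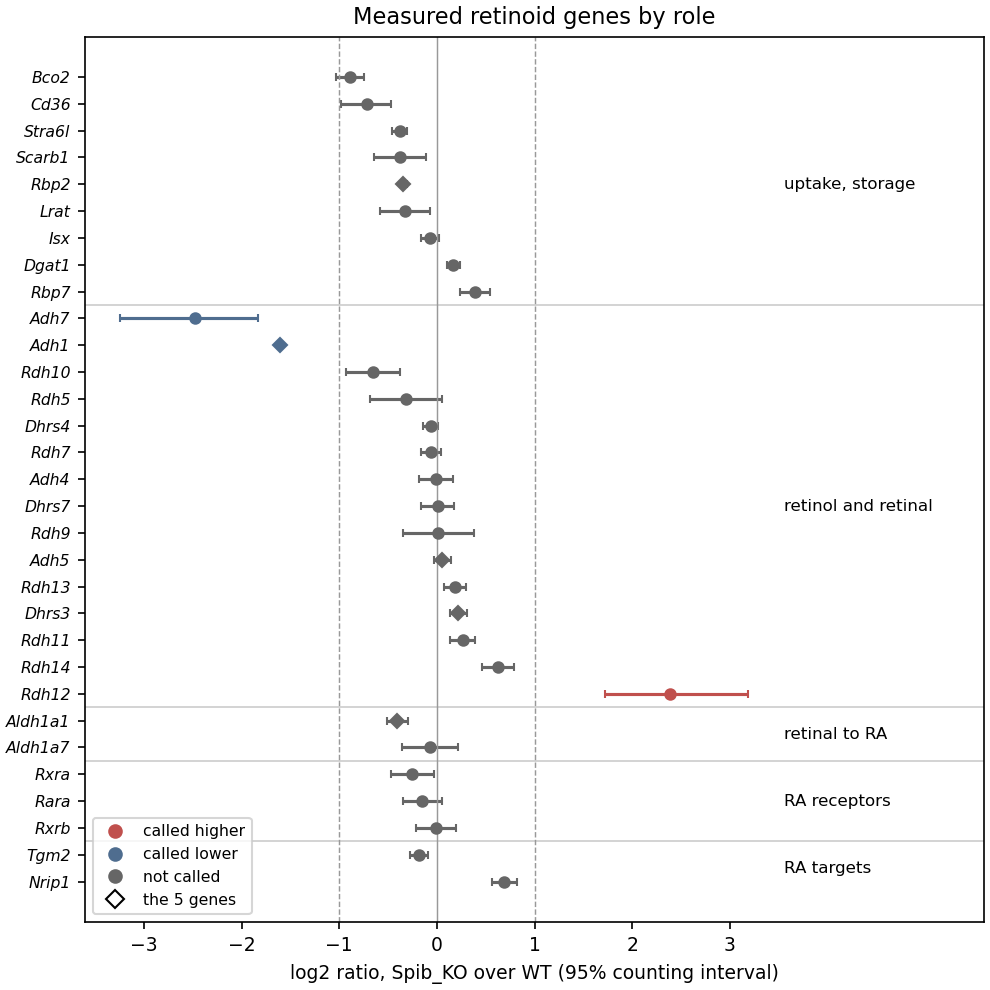
Log2 ratio of Spib_KO over WT with its 95% counting interval for 31 measured retinoid genes, each shown once under the first role that lists it, with called genes in colour and the 5 described genes as diamonds. Dashed lines mark 1 and -1. Adh7 and Adh1 lie wholly below -1, Rdh12 lies wholly above 1 and the other intervals reach into the space between.

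Among 21 measured genes of the alcohol and aldehyde dehydrogenase family, Adh1 and Adh7 were lower and none was higher, with a median of -0.01. Over all measured genes 2.18% were lower and 2.33% higher. Both called genes are also in the retinoid lists, so they are not a further result. Several members were at high levels and differed little. Aldh2, the mitochondrial enzyme that oxidises acetaldehyde, had 929 CPM in Spib_KO and 903 CPM in WT, a log2 ratio of 0.04. Akr1a1, an aldehyde reductase gene, had 761 CPM in Spib_KO and 706 CPM in WT, a ratio of 0.11. Aldh1b1 had 682 CPM in Spib_KO and 748 CPM in WT, a ratio of -0.13. Aldh9a1 had 367 CPM in Spib_KO and 388 CPM in WT, a ratio of -0.08. Esd, whose product follows Adh5 in the clearance of formaldehyde, had 129 CPM in Spib_KO and 137 CPM in WT, a ratio of -0.09. Aldh1l1, a folate enzyme gene, had the lowest ratio after those of Adh7 and Adh1, -0.88, with 45.7 CPM in Spib_KO and 84.2 CPM in WT. The highest ratios were 0.78 for Aldh5a1, with 8.68 CPM in Spib_KO and 5.06 CPM in WT, and 0.76 for Aldh4a1, with 28.8 CPM in Spib_KO and 16.9 CPM in WT. Exons of Aldh1l1, Aldh5a1 and Aldh4a1 overlap those of other annotated genes not analysed here, so their reads are less certain.

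Markers of other cell types were examined in the same way, since a sort can hold other cells. Of 22 enterocyte markers, 0 were called, the median was -0.45 and the range was -0.89 to 0.61. The enterocyte markers summed to 18125 CPM in Spib_KO and 16911 CPM in WT, with Fabp1 the highest at 10611 CPM in Spib_KO and 6968 CPM in WT. Fabp1 had a ratio of 0.61, while 17 of the 22 markers had a ratio below 0 and 5 above. The enterocyte sums thus follow Fabp1 and not most of the markers. Fabp1 ranked 1 by TPM in both libraries. The 16 tuft markers summed to 19796 CPM in Spib_KO and 20190 CPM in WT, so enterocyte transcripts were abundant in both sorted populations. Adh1 had a lower log2 ratio than every one of the 22 enterocyte markers, while Rbp2 and Aldh1a1 lay within their range.

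Of 8 goblet cell markers 3 were lower, with a median of -0.85, a lowest value of -1.31 and sums of 1391 CPM in Spib_KO and 2232 CPM in WT. Of 8 Paneth cell markers 7 were lower, with a median of -1.45 and sums of 978 CPM in Spib_KO and 2546 CPM in WT. The ratio of Adh1 was below all 8 goblet markers and above 3 of the 8 Paneth markers. None of the goblet and Paneth markers was at 0 reads in either library.

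Of 7 measured enteroendocrine markers 5 were lower and 1 higher, with sums of 41.6 CPM in Spib_KO and 136 CPM in WT, and Gcg and Tph1 had 0 reads in Spib_KO. Of 5 measured leukocyte markers 4 were lower, with sums of 10.8 CPM in Spib_KO and 60.5 CPM in WT over 10 genes in the table, and Cd79a and C1qa had 0 reads in Spib_KO. The ratio of Adh1 was above 5 of the 7 measured enteroendocrine markers and above 4 of the 5 measured leukocyte markers. Stromal markers were near 0, with none of 10 measured and sums of 4.66 CPM in Spib_KO and 5.001 CPM in WT. Stem cell markers had 0 of 5 measured genes called and a median of -0.07. Of 5 measured markers of the distal small intestine 1 was higher, the bile acid-binding protein gene Fabp6, with 97.8 CPM in Spib_KO and 19.1 CPM in WT, a log2 ratio of 2.36 (2.19 to 2.53). The distal list had a median of 0.31 and sums of 344 CPM in Spib_KO and 238 CPM in WT, with the largest gap in Fabp6. Of its 5 measured ratios, 3 were above 0 and 2 below, those of Slc51b (-0.32) and Amn (-0.26). Of 4 measured markers of the proximal small intestine 0 were called, with a median of 0.13 and sums of 10791 CPM in Spib_KO and 7188 CPM in WT. These sums are nearly all Fabp1, also an enterocyte marker. Of the 4 ratios, 3 were above 0 and 1 below. The part of these other cells, or of the region of gut, in the differences in Adh1 and Rbp2 was not tested.

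**Figure D5:**
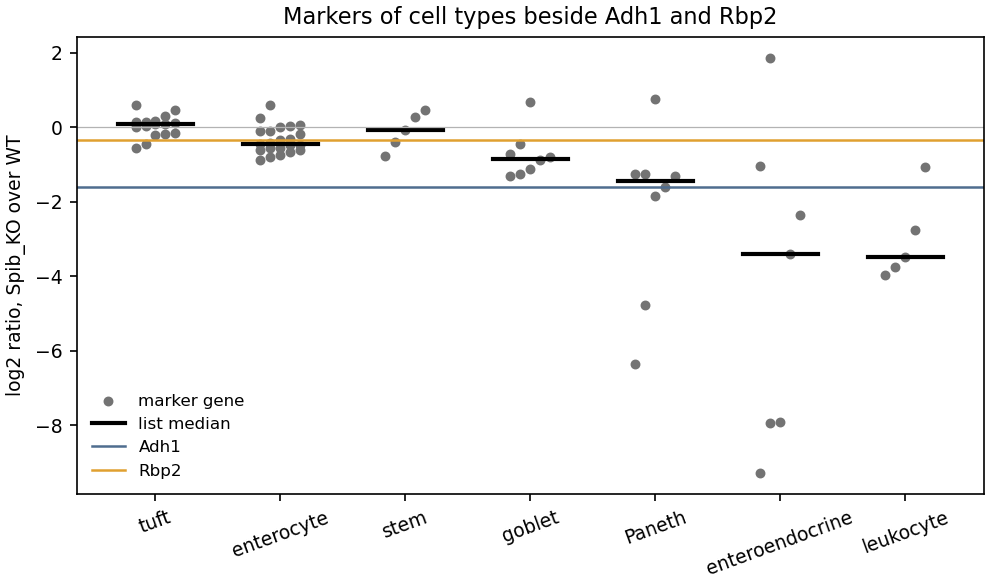
Log2 ratio of Spib_KO over WT for the measured markers of 7 cell types (points), with list medians (bars) and the ratios of Adh1 (-1.60) and Rbp2 (-0.34) as lines. The Adh1 line lies below every tuft, enterocyte, stem and goblet marker and within the spread of the Paneth, enteroendocrine and leukocyte markers. Markers with no reads in Spib_KO are drawn at a ratio that depends on the prior count.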

How the data were processed

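HISAT, Bowtie2 2.2.3 and build mm10 are named in the submitters' processing notes. How reads were counted, and on which annotation, is not given in the sources used here. RNA was extracted with TRIzol, amplified as cDNA by a SMART-Seq type method and made into libraries with a transposase, per the labels' protocols. Per the file headers, the authors deposited estimated counts of reads, FPKM and TPM for every gene in both libraries. Of the estimated counts, 18.6% (Spib_KO) and 19.0% (WT) were not whole, and all were rounded.

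Libraries were scaled with TMM factors (edgeR 4.0.16, R 4.3.3). Log2 ratios used a prior count of 0.5, scaled to library size, and exact conditional binomial (Clopper-Pearson) intervals at 95%. Intervals cover counting error only, since PCR copies are not independent molecules. A count of 0 was set to a floor of 3 counts in that library for a fold. Deposited TPM served for levels between genes. DESeq2 1.42.0 size factors were an alternative. Python 3.11.15 with numpy 2.4.6, scipy 1.17.1, pandas 2.3.3 and matplotlib 3.10.9 did the rest, and the procedure was tested on simulated data.

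Named were Spib, the 5 genes, called genes of the retinoid and dehydrogenase lists with up to 4 abundant others each, the 3 genes nearest to a called gene in log2 ratio, and markers. Bco2, Lrat, Rbp7, Rdh10, Rdh11, Rdh13, Rdh14, Aldh9a1, Aldh1l1, Aldh4a1, Aldh5a1, Esd, Reg3b, Reg3g, Ptpn6 and the cluster genes were named after their values were seen. The genes and lists were chosen with earlier results of these data known. Positions and promoter sequences are from RefSeq (GRCm38.p6) and transcripts and exons from GENCODE (GRCm38).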

Additional observations from a re-analysis of the deposited data

How the results depend on the processing

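No paired analysis was possible because each genotype has 1 library. No library could be left out for the same reason. The log2 ratio of Adh1 was called lower under all 9 alternatives run for it and ranged from -1.69 to -1.60 over the settings on counts. The prior count does not enter the interval and the point estimate is a looser rule, so neither setting could remove this call. The TPM and FPKM settings also call on a point difference of 1 in log2 units, without an interval. Their counts of called genes thus follow another rule than the main ones. All settings use the same 2 libraries and do not stand in for replicates. Rbp2 (-0.43 to -0.34), Aldh1a1 (-0.50 to -0.40) and Dhrs3 (0.13 to 0.23) kept their sign and were not called. Scaling on tuft markers, which shifts all ratios by -0.09, gave Adh5 a ratio of -0.034, against 0.06. Called genes of the retinoid lists numbered 3, but 2 with TPM, 1 with a CPM minimum of 20 or with FPKM, and 8 with no filter. In the dehydrogenase family they numbered 2, but 1 with a CPM minimum of 20, TPM or FPKM, and 5 with no filter. Adh1 was called under each of these settings, and Adh7 was not with TPM, FPKM or the CPM minimum of 20. Over all genes, 250 higher and 233 lower became 101 and 106 with a CPM minimum of 20, 595 and 716 with no filter, and 425 and 419 by the point estimate. With FPKM 165 genes were higher, and the cause was not tested. Other scalings shifted ratios by -0.01 to 0.01. Adh7 and Rdh12 rest on few reads, with 21 and 102 in Spib_KO and 125 and 20 in WT, and genes of the Cyp26 family were below the limit for measured genes.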

Other observations

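Several genes of the retinoid and dehydrogenase lists were below the limit for measured genes but had a counting interval wholly beyond a 2-fold difference. They were picked after their values were seen. Aldh1a3, which encodes a retinal dehydrogenase, had 22 reads in Spib_KO and 0 in WT. It was 7.69-fold higher against the floor, with a log2 interval that began at 2.52. Cyp26a1, whose enzyme breaks down retinoic acid and which is known as a retinoic acid target, had 11 reads in Spib_KO and 0 in WT. It was 3.85-fold higher against the floor, with a log2 interval that began at 1.40. Rdh16, a retinol dehydrogenase gene, had 22 reads in Spib_KO and 1 in WT, a log2 ratio of 3.96 (1.90 to 9.90). Hic1, a transcriptional repressor gene, had 27 reads in Spib_KO and 5 in WT, a ratio of 2.39 (1.10 to 4.24).

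In the other direction, Aldh1a2, the retinal dehydrogenase gene of stromal and dendritic cells, had 0 reads in Spib_KO and 13 in WT. It was 4.13-fold lower against the floor, with a log2 interval that ended at -1.54. Aldh3b2 had 0 reads in Spib_KO and 27 in WT, 8.58-fold lower against the floor, with an interval that ended at -2.70. Each of these genes was at no more than 1.57 CPM in either library, and the folds at 0 reads use a floor of 3 counts in that library.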
